A study of Arabidopsis with 8 samples.

Results

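ETHYLENE RESPONSE FACTOR (ERF) genes encode plant transcription factors that share a single AP2 DNA-binding domain. A gene was taken as a member when its name in any of the 8 files was ERF, or ATERF, followed by a number. This gave 76 members among the 25404 genes listed in at least 1 library. Their levels were read in OE-SAUR41 roots, Col-0 roots, OE-SAUR41 shoot parts and Col-0 shoot parts of 5-day-old Arabidopsis seedlings, with 2 RNA sequencing libraries per group. Col-0 is the wild type, and OE-SAUR41 overexpresses SAUR41, a gene of the SMALL AUXIN UP RNA family. The promoter of the transgene and the number of independent lines are not stated in the labels. Nothing in the labels says whether both libraries of a group were grown apart, so the p-values speak only for the spread of these samples, and that spread may be technical.

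The ERF proteins fall into numbered family groups by sequence. Groups I to IV form the DREB side of the family, whose proteins mostly bind the dehydration-responsive element, and groups V to X form the ERF side, whose proteins mostly bind the GCC box of defence gene promoters. Ethylene reaches the GCC box through its receptors, the kinase CTR1, the membrane protein EIN2 and the factors EIN3 and EIL1. Group IX holds many activators of defence genes. Group VIII holds repressors with an EAR motif, which recruits co-repressors of the TOPLESS family. Several ERF transcripts rise within minutes of touch, wounding or cold. The 76 members were spread over groups I (8), II (14), III (11), V (1), VI (6), VII (2), VIII (12), IX (15) and X (7), following the usual classification of the family.

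SAUR41 stood at 7996 and 4670 FPKM in OE-SAUR41 roots, against 4.64 and 7.46 FPKM in Col-0 roots. In shoots it stood at 10675 and 10248 FPKM in OE-SAUR41, against 4.93 and 8.29 FPKM in Col-0. FPKM are fragments per kilobase of transcript, scaled to the number of mapped fragments in the library. Read depth is unknown, since the files hold no counts. A gene is referred to as called where its adjusted p from limma, a linear model fitted to all genes, lay below 0.05. All 7 root markers, PIN2 and CASP1 among them, were called higher in roots than in shoots in both genotypes. Of 8 shoot markers, 7 were called lower in OE-SAUR41 roots than in OE-SAUR41 shoots, with AS1 as the exception, and all 8 were called lower in Col-0 roots than in Col-0 shoots. In whole organs, fewer cells of a type and less RNA per cell cannot be told apart. The 2 Col-0 shoot libraries stood apart from each other. They differed by 2-fold or more for 29.1% of 19863 tested genes, against 1.27% to 2.04% in the other groups. The ERF genes are short, with a median span of 942.5 bp against 2386 bp for all tested genes. Their median difference between these libraries was 0.16 on the log2(FPKM + 1) scale, against 0.50 for all genes.

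ERF transcripts made up a small and fairly even part of each library. They summed to 1203 and 884 FPKM in OE-SAUR41 roots and to 1171 and 856 FPKM in Col-0 roots. In shoots they summed to 1110 and 1071 FPKM in OE-SAUR41 and to 1247 and 1170 FPKM in Col-0. Their share of all FPKM lay between 0.140% and 0.194%. In both root groups the first library was the higher. Both Col-0 shoot sums lay above both OE-SAUR41 shoot sums, while by share no group lay apart from the others.

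**Figure D1:**
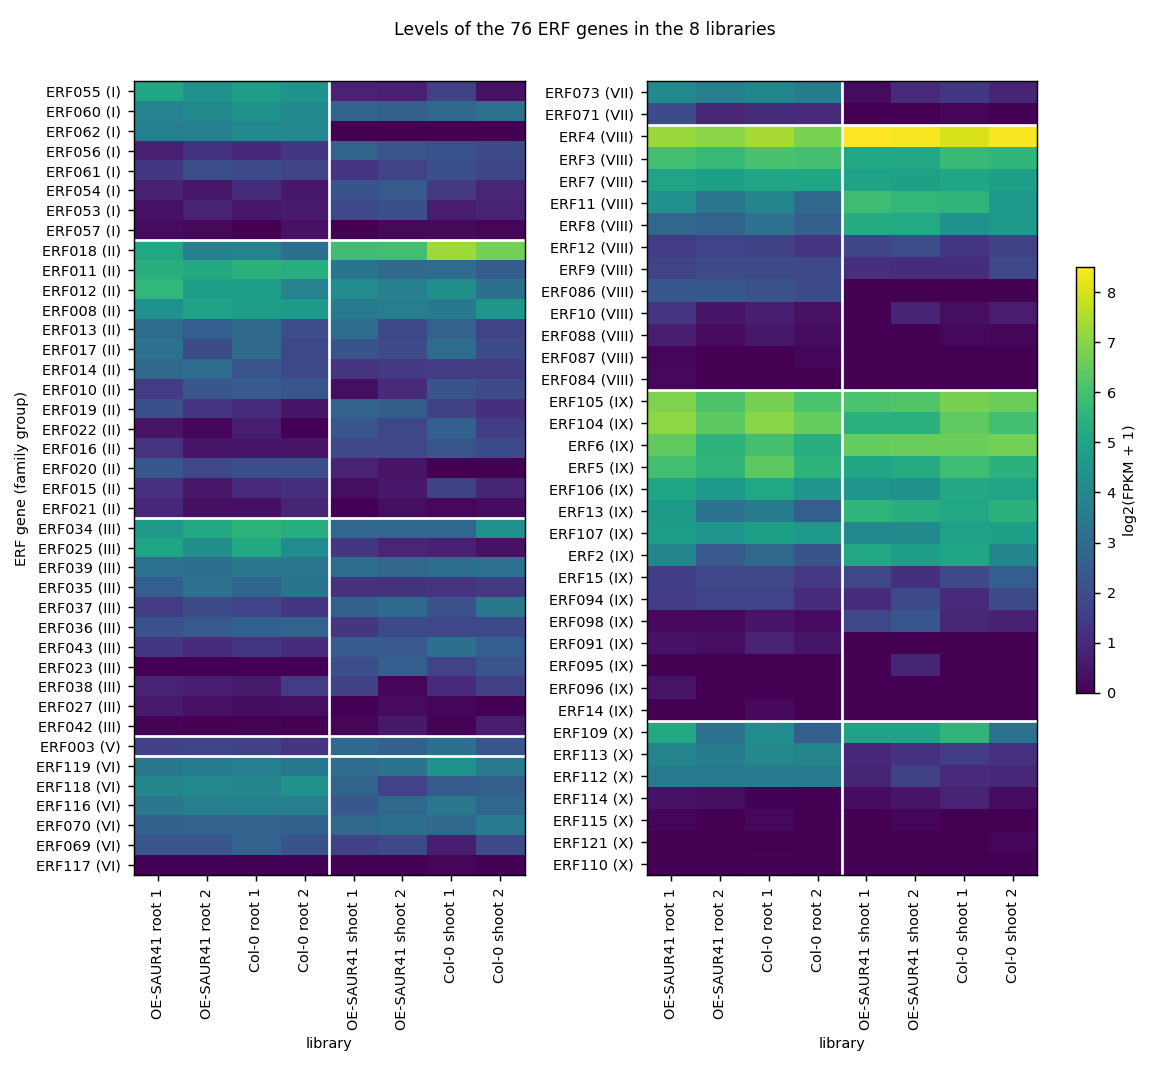
Level of each of the 76 ERF genes (rows, with the family group in brackets) in each of the 8 libraries (columns), as log2(FPKM + 1) from dark (0) to yellow (highest). White lines part roots from shoots and the family groups from each other. The brightest cells are those of ERF4 in shoots, 335 and 363 FPKM in OE-SAUR41 and 251 and 343 FPKM in Col-0.

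The ERF gene of highest level was ERF4 (AT3G15210, chromosome 3, 5121422 to 5122562, TAIR10), an EAR repressor of ethylene, jasmonate and abscisic acid responses. Root libraries held 151 and 131 FPKM in OE-SAUR41, against 167 and 109 FPKM in Col-0. Shoot libraries held 363 and 335 FPKM in OE-SAUR41, against 251 and 343 FPKM in Col-0. It was the highest member in every library, and all shoot values lay above all root values. ERF4 made up 13.5% of the summed ERF level in roots and 28.1% in shoots.

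The other high genes belonged mainly to group IX. ERF104 (AT5G61600, chromosome 5, 24766386 to 24767430), a substrate of the MAP kinase MPK6 in the response to bacterial flagellin, averaged 107 FPKM over the 4 root libraries and 56.5 FPKM over the 4 shoot libraries. ERF105 (AT5G51190), known for its part in freezing tolerance, averaged 89.7 FPKM in roots and 86.2 FPKM in shoots. ERF6 (AT4G17490), which restrains leaf growth under osmotic stress and acts in defence, averaged 58.6 FPKM in roots and 95.5 FPKM in shoots. The remaining names among the first 5 were ERF3, an EAR repressor with a mean of 60.2 FPKM in roots, and ERF018 with 94.2 FPKM in shoots. The first 5 together made up 44.2% of the summed level in roots and 57.0% in shoots. In roots 27 members averaged 10 FPKM or more, and in shoots 18 did.

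At the other end, 17 members stayed below the filter of 1 FPKM in at least 2 libraries and were not tested. Their highest single value was 1.41 FPKM, for ERF10 in OE-SAUR41 root 1, and 7 of them were listed in a single library. Of the 8 repressors ERF3, ERF4 and ERF7 to ERF12, the lowest was ERF10, with a mean of 0.555 FPKM over the 8 libraries, and the lowest of group IX was ERF14, listed in Col-0 root 1 alone at 0.162 FPKM. In group X the lowest was ERF110, listed in Col-0 root 1 alone at 0.0451 FPKM. ERF115, which acts in the renewal of root stem cells after damage, reached at most 0.140 FPKM, and ERF114, a gene of axillary bud growth, at most 0.807 FPKM. In group VII, ERF073 averaged 7.01 FPKM and ERF071 0.742 FPKM over the 8 libraries. Of all members, 53 were listed in all 8 libraries, 7 in roots only and 4 in shoots only.

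The 59 members that passed the filter were compared between organs within each genotype with limma on log2(FPKM + 1), with p adjusted by Benjamini-Hochberg over all 19863 genes. In OE-SAUR41, 39 of 59 were called (66.1%, against a background of 77.8% of all genes). In Col-0, 29 of 59 were called (49.2%, background 65.9%). In OE-SAUR41, 23 were higher in roots (39.0%, background 66%) and 16 lower (27.1%, background 11.8%). In Col-0, 15 were higher in roots (25.4%, background 52.7%) and 14 lower (23.7%, background 13.2%). As deposited, members thus divided almost evenly between the organs in Col-0, while most called genes of the genome were higher in roots. The median root minus shoot difference was 0.36 for members against 1.22 for all genes in OE-SAUR41, and -0.09 against 0.91 in Col-0.

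The high background in roots depended on the scaling of the libraries. TMM scaling, which sets the bulk of genes to a common level, brought the median of all genes to 0.14 in OE-SAUR41 and 0.09 in Col-0. Under it 10 members were called higher in roots and 28 lower in OE-SAUR41 (16.9% and 47.5%, against 28.6% and 25.3% of all genes). In Col-0 9 were called higher and 25 lower (15.3% and 42.4%, against 20.6% and 21.7%). Quantile normalization gave 9 higher and 25 lower in OE-SAUR41 (15.3% and 42.4%, against 32.5% and 22.9%), and 9 higher and 26 lower in Col-0 (15.3% and 44.1%, against 28.4% and 21.8%). Relative to the median of all genes, the median of the members lay at -0.86 in OE-SAUR41 and -1.01 in Col-0 as deposited. It lay at -0.91 and -0.84 under TMM scaling, and at -1.02 and -0.90 under quantile normalization, in the same order of genotypes. Without Col-0 root 2, 18 members were called in Col-0, 12 higher and 6 lower (30.5% in all, against 41.8% of all genes).

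**Figure D2:**
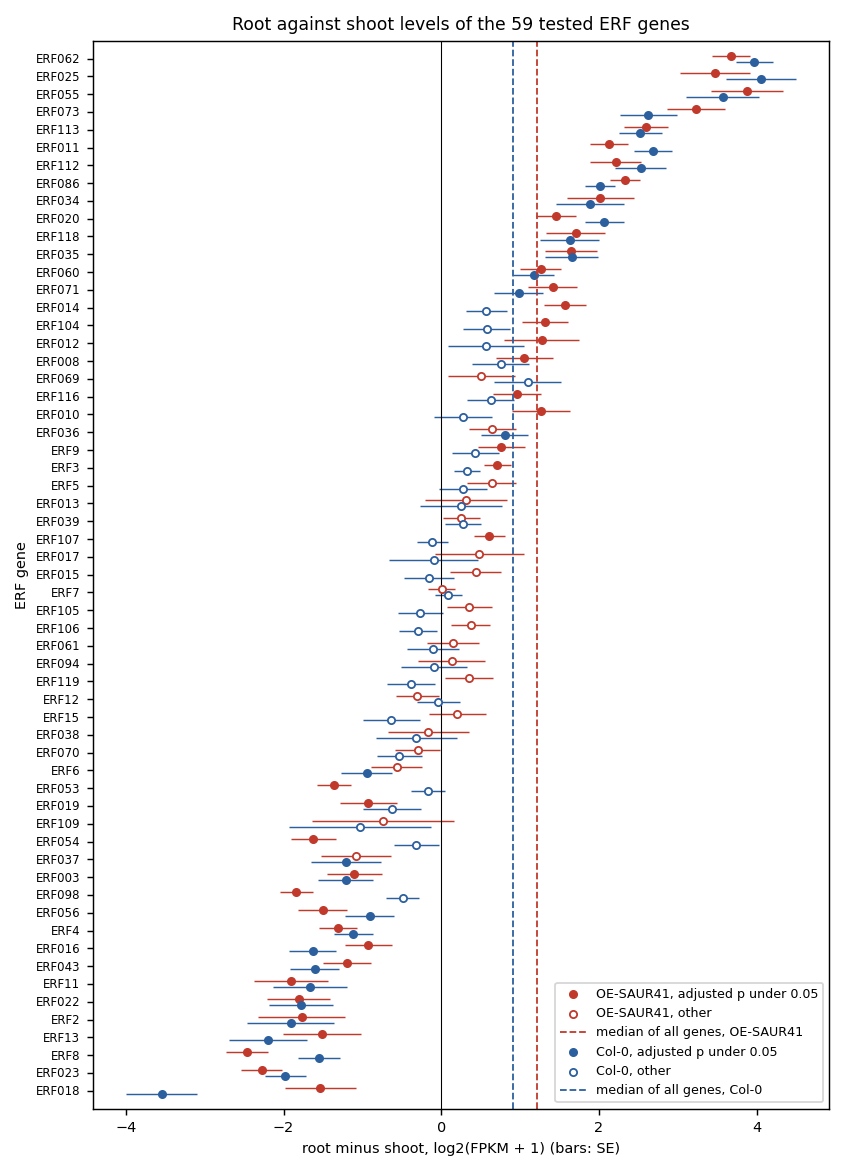
Root minus shoot difference of each of the 59 tested ERF genes on the log2(FPKM + 1) scale, in OE-SAUR41 (red, upper of each pair) and Col-0 (blue, lower). Points are differences of group means, bars are SE, filled points passed the adjusted p of 0.05, and dashed lines are the medians of all genes, 1.22 and 0.91. ERF062, ERF025 and ERF055 lie farthest to the root side and ERF018, ERF023 and ERF8 among the farthest to the shoot side.

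Called in both genotypes were 14 members higher in roots (background 50.7% of all genes) and 12 members higher in shoots (background 11%). Of these, 7 root genes and all 12 shoot genes were called in both genotypes under both other scalings too. The 7 were ERF062, ERF025, ERF055, ERF011, ERF073, ERF113 and ERF086. The other 7 root genes, ERF118, ERF020, ERF112, ERF034, ERF071, ERF035 and ERF060, were not called in both genotypes under at least 1 other scaling. The matching count over all genes was not made, so the 7 root and 12 shoot genes kept have no background. In each genotype both other scalings lowered the share of all genes called higher in roots. They raised the share called lower, in OE-SAUR41 from 11.8% to 25.3% (TMM) and 22.9% (quantile). The part of this shift in the member counts was not tested. Across the 59 members the differences in OE-SAUR41 and Col-0 had a Pearson r of 0.93, with the same sign for 50, as a description across genes that share libraries. Over all tested genes r was 0.96.

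The most root-weighted members came from groups I and III of the DREB side. ERF062 (AT4G13620, chromosome 4, 7932138 to 7933542) stood at 11.7 and 11.8 FPKM in OE-SAUR41 roots and 15.2 and 14.2 FPKM in Col-0 roots. It was not listed in any of the 4 shoot libraries, so no fold is given (limma adjusted p = 1.62e-05 in OE-SAUR41 and 1.02e-05 in Col-0). ERF062 passed the filter only through the root libraries, and its shoot values were taken as 0. These p-values are thus not independent of the filter. ERF025 (AT5G52020, chromosome 5, 21123958 to 21124948) stood at 31.6 and 17.4 FPKM in OE-SAUR41 roots, against 1.58 and 0.887 FPKM in OE-SAUR41 shoots. The Col-0 values were 35.2 and 16.7 FPKM in roots, against 0.736 and 0.337 FPKM in shoots. Its log2 differences were 3.47 (SE 0.44, limma adjusted p = 4.06e-04) in OE-SAUR41 and 4.05 (SE 0.44, limma adjusted p = 1.90e-04) in Col-0. ERF055 (AT1G36060), also called TRANSLUCENT GREEN and known as an activator of aquaporin genes, had differences of 3.88 and 3.57 in the same order. Its root values were 31.6 and 19.0 FPKM in OE-SAUR41 and 26.2 and 20.3 FPKM in Col-0, and its highest shoot value was 2.18 FPKM.

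The group II gene ERF011, also known as DEAR1, a repressor related to the DREB factors of cold response, was the highest of these root genes. It stood at 40.0 and 34.8 FPKM in OE-SAUR41 roots against 8.98 and 6.67 FPKM in OE-SAUR41 shoots (log2 difference 2.13, limma adjusted p = 2.34e-04). In Col-0 it stood at 43.2 and 40.5 FPKM in roots against 6.81 and 4.66 FPKM in shoots (log2 difference 2.69, limma adjusted p = 7.08e-05). The groups did not overlap in either genotype.

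Both group VII members were higher in roots as deposited. ERF073 (AT1G72360, chromosome 1, 27241807 to 27242827), the low oxygen factor HRE1, stood at 15.4 and 11.96 FPKM in OE-SAUR41 roots and 13.8 and 11.3 FPKM in Col-0 roots. In shoots it stood at 0.182 and 1.04 FPKM in OE-SAUR41 and 1.61 and 0.829 FPKM in Col-0. Its log2 differences were 3.23 in OE-SAUR41 and 2.63 in Col-0 (limma adjusted p = 2.21e-04 and 6.54e-04). ERF071, the related HRE2, reached 2.81 FPKM in OE-SAUR41 root 1 and at most 1.14 FPKM elsewhere.

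Group X and group VIII each held a root gene linked to organ formation. ERF113, also known as RAP2.6L and needed in shoot regeneration and tissue rejoining, stood at 13.2 and 11.2 FPKM in OE-SAUR41 roots and 14.9 and 13.5 FPKM in Col-0 roots. Its shoot values were 0.983 and 1.39 FPKM in OE-SAUR41 and 1.95 and 1.36 FPKM in Col-0. ERF086 (AT5G18560), the PUCHI gene of lateral root primordia, stood at 4.02 and 4.01 FPKM in OE-SAUR41 roots and 3.33 and 2.87 FPKM in Col-0 roots. In shoots it was listed in Col-0 shoot 2 alone, at 0.0317 FPKM. The group X neighbour of ERF113 in numbering, ERF112, had log2 differences of 2.21 in OE-SAUR41 and 2.53 in Col-0, with root values between 10.13 and 10.46 FPKM.

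Shoot-weighted members included 3 of the 8 tested group VIII genes, all EAR repressors. ERF8 (AT1G53170, chromosome 1, 19821337 to 19822252) stood at 5.94 and 5.56 FPKM in OE-SAUR41 roots against 36.5 and 36.2 FPKM in OE-SAUR41 shoots. The Col-0 values were 8.34 and 4.99 FPKM in roots against 18.6 and 23.5 FPKM in shoots. Its log2 differences were -2.47 (SE 0.27, limma adjusted p = 1.77e-04) in OE-SAUR41 and -1.55 (SE 0.27, limma adjusted p = 0.00191) in Col-0. ERF11, which represses genes of ethylene synthesis, stood at 18.8 and 9.42 FPKM in OE-SAUR41 roots against 57.8 and 48.4 FPKM in OE-SAUR41 shoots. In Col-0 its values were 14.04 and 6.59 FPKM in roots against 46.8 and 22.9 FPKM in shoots. ERF4 had log2 differences of -1.31 in OE-SAUR41 and -1.11 in Col-0.

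ERF7, a repressor of abscisic acid responses, varied little, between 26.8 and 31.9 FPKM in the 8 libraries. ERF3 lay on the root side instead, with 62.0 and 50.8 FPKM in OE-SAUR41 roots against 33.2 and 34.5 FPKM in OE-SAUR41 shoots (log2 difference 0.71, limma adjusted p = 0.00662). In Col-0 it stood at 66.6 and 61.3 FPKM in roots and 53.7 and 48.0 FPKM in shoots (0.33, limma adjusted p = 0.120). Under TMM scaling its sign turned, to -0.70 in each genotype, but not under quantile normalization (0.17 in OE-SAUR41 and 0.0067 in Col-0). ERF9, a repressor of jasmonate defence genes, was called higher in roots in OE-SAUR41 (0.76, limma adjusted p = 0.0461). Its sign turned under TMM scaling (-0.15) and under quantile normalization (-0.54). ERF12 had -0.30 in OE-SAUR41 and -0.04 in Col-0, neither called.

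In group IX, ERF2 and ERF13 were higher in shoots in both genotypes. ERF2 (AT5G47220), an activator of jasmonate-responsive defence genes, stood at 13.9 and 4.23 FPKM in OE-SAUR41 roots against 32.6 and 26.0 FPKM in OE-SAUR41 shoots. The Col-0 values were 6.37 and 3.55 FPKM in roots against 30.9 and 13.9 FPKM in shoots. ERF13 (AT2G44840), which restrains lateral root emergence, had log2 differences of -1.51 in OE-SAUR41 and -2.20 in Col-0. The ERF2 and ERF13 shoot values lay above their root values of the same genotype in each library. ERF104 was called higher in roots in OE-SAUR41 (1.31, limma adjusted p = 0.00507) and had 0.58 in Col-0 (limma adjusted p = 0.114). Its sign turned under TMM scaling but not under quantile normalization (0.89 in OE-SAUR41 and 0.26 in Col-0). ERF5, a relative of ERF6 with a part in chitin signalling and drought, had 0.64 in OE-SAUR41 and 0.27 in Col-0, neither called. In the same order it had -0.78 and -0.75 under TMM scaling, and 0.089 and -0.087 under quantile normalization. ERF105 had 0.36 in OE-SAUR41 and -0.27 in Col-0, neither called.

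ERF018 (AT1G74930, chromosome 1, 28144132 to 28145049), the ORA47 gene that activates jasmonate synthesis, was the most shoot-weighted member in Col-0. Its level was 12.9 and 7.58 FPKM in Col-0 roots against 153 and 105 FPKM in Col-0 shoots, a log2 difference of -3.55 (SE 0.45, limma adjusted p = 3.93e-04). In OE-SAUR41 it stood at 32.7 and 12.1 FPKM in roots against 59.4 and 60.2 FPKM in shoots, a log2 difference of -1.53 (SE 0.45, limma adjusted p = 0.0148). The shoot values exceeded the root values in both genotypes. Within shoots both OE-SAUR41 values lay below both Col-0 values, and within roots the groups overlapped.

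Lower shoot genes came from groups II, III and V. ERF023 was not listed in any root library and stood at 3.07 and 4.77 FPKM in OE-SAUR41 shoots and 2.31 and 3.71 FPKM in Col-0 shoots, so no fold is given. ERF022 stood at 0.368 and 0.0722 FPKM in OE-SAUR41 roots against 3.98 and 2.63 FPKM in OE-SAUR41 shoots. In Col-0 it stood at 0.550 FPKM in root 1, was not listed in root 2, and stood at 5.21 and 1.94 FPKM in shoots. ERF003, ERF016, ERF043 and ERF056 were also called in both genotypes, with log2 differences between -0.91 and -1.63. Leaving out 1 library ended some of the shoot calls. Without Col-0 root 2, adjusted p in Col-0 was 0.0533 for ERF13, 0.116 for ERF2, 0.0635 for ERF022 and 0.116 for ERF11. Without OE-SAUR41 root 2 it was 0.133 for ERF2 and 0.0563 for ERF11 in OE-SAUR41, without OE-SAUR41 shoot 1 it was 0.101 and 0.0502, and without OE-SAUR41 shoot 2 it was 0.0620 for ERF2.

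The calls made in both genotypes were counted by family group. As deposited, of 7 tested group I genes, 3 were called higher in roots in both genotypes and 1 higher in shoots. Group II had 2 and 3 of 13, group III had 3 and 2 of 9, and group VIII had 1 and 3 of 8, roots given first. Group IX had 0 and 2 of 11. Group VI, which includes cytokinin response factors, had 1 and 0 of 5, and group X had 2 and 0 of 3. Counting only calls made under all 3 scalings, these became 2 and 1 in group I, 1 and 3 in group II, 1 and 2 in group III, 1 and 3 in group VIII, 0 and 2 in group IX, 0 and 0 in group VI, and 1 and 0 in group X. Over all tested genes, 50.7% were called higher in roots in both genotypes and 11% higher in shoots, as deposited. That share was not counted under all 3 scalings. No test of these divisions was made.

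The overexpression of SAUR41 was examined first in roots. No member was called by limma (0 of 59, against 1 of 19863 genes, 0.00503%). An unadjusted p under 0.05 was found for 2 members (3.39%, background 1.71%). Both OE-SAUR41 libraries lay above both Col-0 libraries for 5 members (8.47%, background 11.5%) and below both for 9 (15.3%, background 19.6%). The median log2 fold change was -0.02 for members and -0.03 for all genes.

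The smallest p in the positive direction in roots belonged to genes of group II. ERF014 (AT1G44830, chromosome 1, 16933792 to 16934511), linked to defence against bacteria and fungi, stood at 6.42 and 7.14 FPKM in OE-SAUR41 roots, against 3.76 and 2.75 FPKM in Col-0 roots. The log2 fold change of ERF014 was 0.88 (SE 0.26, limma adjusted p = 1.00). Both OE-SAUR41 values lay above both Col-0 values, and the replicates were close. ERF018 stood at 32.7 and 12.1 FPKM in OE-SAUR41 roots, against 12.9 and 7.58 FPKM in Col-0 roots (log2 fold change 0.95, SE 0.45, limma adjusted p = 1.00), and its groups overlapped. ERF019 stood at 3.21 and 1.402 FPKM in OE-SAUR41 roots, against 1.102 and 0.430 FPKM in Col-0 roots (0.88, SE 0.36, limma adjusted p = 1.00). It shares its locus with another gene in the files, so its values are uncertain. ERF012, also known as DREB26, stood at 48.3 and 25.7 FPKM in OE-SAUR41 roots, against 25.4 and 12.6 FPKM in Col-0 roots (0.94).

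The smallest p in the negative direction belonged to ERF034, ERF036 and ERF062. ERF034 stood at 23.3 and 33.8 FPKM in OE-SAUR41 roots, against 44.7 and 39.9 FPKM in Col-0 roots (log2 fold change -0.57). ERF036 stood at 3.43 and 4.25 FPKM in OE-SAUR41 roots, against 5.22 and 5.59 FPKM in Col-0 roots (-0.41). ERF062 stood at 11.7 and 11.8 FPKM in OE-SAUR41 roots, against 15.2 and 14.2 FPKM in Col-0 roots (-0.30). Each had a limma adjusted p = 1.00, although the OE-SAUR41 values of all 3 lay below the Col-0 values.

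In shoots, too, limma called no member between OE-SAUR41 and Col-0 (0 of 59, against 4 of 19863 genes, 0.0201%). An unadjusted p under 0.05 was found for 14 members (23.7%, background 14%). Both OE-SAUR41 libraries lay above both Col-0 libraries for 10 members (16.9%, background 7.26%) and below both for 18 (30.5%, background 32.5%). The median log2 fold change was -0.12 for members and -0.32 for all genes. It was 0.11 and -0.02 under TMM scaling, and 0.20 and -0.01 under quantile normalization, so the sign of the members' median depended on the scaling. Positive and negative values numbered 23 and 35 as deposited, 34 and 24 under TMM scaling, and 43 and 16 under quantile normalization.

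**Figure D3:**
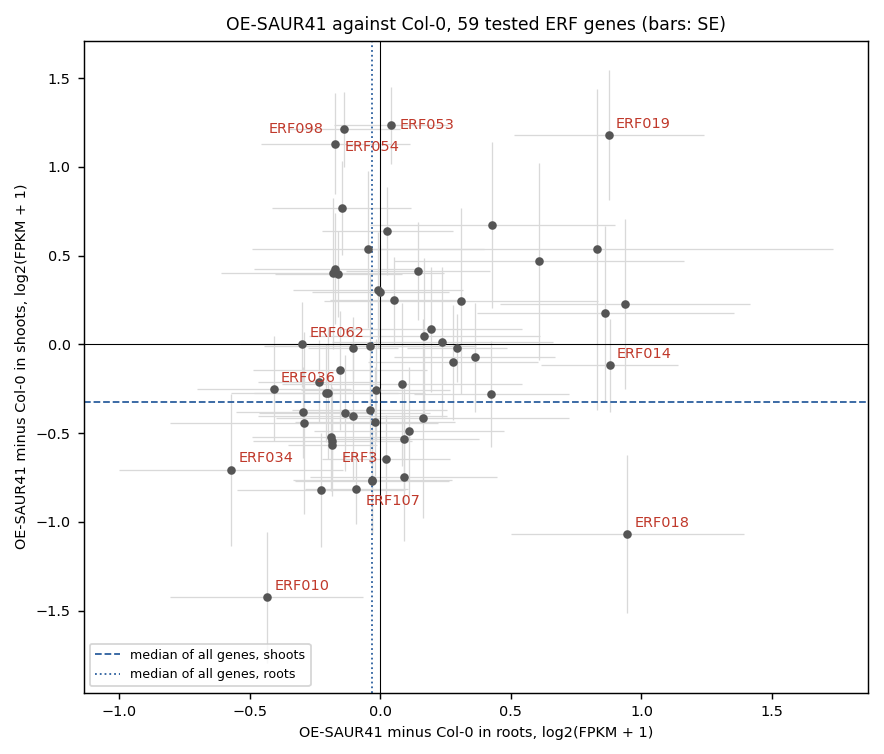
OE-SAUR41 minus Col-0 difference of each of the 59 tested ERF genes in roots (horizontal axis) and shoots (vertical axis), on the log2(FPKM + 1) scale, with SE bars. Dotted and dashed lines are the medians of all genes, -0.03 in roots and -0.32 in shoots, and named genes are those with the smallest p in each direction. ERF098, ERF053 and ERF054 stand high in shoots near 0 in roots, and ERF018 lies at 0.95 in roots and -1.07 in shoots.

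The smallest p in the positive direction belonged to genes of low level. ERF098 (AT3G23230, chromosome 3, 8289647 to 8290066), also known as TDR1 and linked to defence, stood at 2.58 and 3.84 FPKM in OE-SAUR41 shoots, against 0.870 and 0.729 FPKM in Col-0 shoots. The log2 fold change of ERF098 was 1.21 (SE 0.21, limma adjusted p = 0.121). ERF053 (AT2G20880, chromosome 2, 8985973 to 8987263), which acts in drought tolerance, stood at 2.68 and 3.23 FPKM in OE-SAUR41 shoots, against 0.585 and 0.771 FPKM in Col-0 shoots (1.23, SE 0.22, limma adjusted p = 0.121). ERF054 (AT4G28140), of the same group I, stood at 3.67 and 4.23 FPKM in OE-SAUR41 shoots, against 1.72 and 0.873 FPKM in Col-0 shoots (1.13, SE 0.28, limma adjusted p = 0.238). The groups of all 3 genes were apart, with OE-SAUR41 above Col-0. In roots the values of these genes did not exceed 1.17 FPKM. ERF098 and ERF053 reached 1 FPKM in OE-SAUR41 shoots alone, so they passed the filter only through the group where they were high. Their p-values and calls, here and below, are thus not independent of the filter.

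The smallest p in the negative direction included a high gene. ERF107 (AT5G61590, chromosome 5, 24764438 to 24765324), the DEWAX repressor of leaf wax genes, stood at 14.5 and 15.9 FPKM in OE-SAUR41 shoots, against 28.0 and 27.1 FPKM in Col-0 shoots (log2 fold change -0.82, SE 0.20, limma adjusted p = 0.225). Its relative ERF106, or DEWAX2, stood at 20.9 and 19.9 FPKM in OE-SAUR41 shoots, against 34.5 and 30.6 FPKM in Col-0 shoots (-0.65). ERF3 stood at 33.2 and 34.5 FPKM in OE-SAUR41 shoots, against 53.7 and 48.0 FPKM in Col-0 shoots (-0.57, limma adjusted p = 0.273). ERF010, or DEAR2, stood at 0.231 and 1.00 FPKM in OE-SAUR41 shoots, against 3.63 and 2.84 FPKM in Col-0 shoots (-1.43, limma adjusted p = 0.246). In each of these genes both OE-SAUR41 values lay below both Col-0 values, and the replicates of ERF107, ERF106 and ERF3 were close in both groups.

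Of the high group IX genes, ERF104, ERF105 and ERF5 had both OE-SAUR41 shoot values below both Col-0 shoot values, and ERF6 did not. Such a position was held by 32.5% of all genes. ERF104 stood at 41.5 and 40.8 FPKM in OE-SAUR41 shoots, against 84.2 and 59.4 FPKM in Col-0 shoots (-0.77, limma adjusted p = 0.329). ERF105 stood at 67.7 and 72.5 FPKM, against 108 and 96.2 FPKM, and ERF5 at 31.4 and 36.3 FPKM, against 57.8 and 42.9 FPKM, in the same order of groups. ERF6 stood at 89.3 and 94.7 FPKM in OE-SAUR41 shoots, against 93.3 and 105 FPKM in Col-0 shoots (-0.10, limma adjusted p = 0.885), and its groups overlapped. The median of the 11 tested group IX genes was -0.54, with 7 negative, against -0.32 for all genes. It was -0.10 under TMM scaling, -0.25 under quantile normalization and -0.40 with a correction for gene length. The medians of all genes were then -0.02, -0.01 and 0.01 in the same order. ERF2 and ERF13 of the same group had 0.47 and 0.17, with overlapping groups. The repressors ERF8 and ERF11 had 0.77 and 0.67, with ERF8 at 36.5 and 36.2 FPKM in OE-SAUR41 shoots, against 18.6 and 23.5 FPKM in Col-0 shoots (limma adjusted p = 0.305).

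The shoot comparison rested on the Col-0 shoot libraries. Without Col-0 shoot 2, limma called 15 members, 5 higher (ERF053, ERF098, ERF069, ERF8 and ERF054) and 10 lower, among them ERF010, ERF119, ERF104, ERF107 and ERF3. Of all genes 49.8% were then called, 3.93% higher and 45.8% lower, against 8.47% and 16.9% of the members, and the median of all genes lay at -0.58. Without Col-0 shoot 1 it called ERF034 alone among the members (1.69%, against 1.80% of all genes), at a log2 fold change of -1.41 (adjusted p = 0.0285), where ERF034 stood at 6.02 and 6.35 FPKM in OE-SAUR41 shoots against 6.19 and 18.1 FPKM in Col-0 shoots. With the correction for gene length, ERF053 (1.39, limma adjusted p = 0.0487) and ERF098 (1.34, limma adjusted p = 0.0490) were called higher, when 0.297% of all genes were. Both passed the filter only through OE-SAUR41 shoots.

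No member was called by limma for a difference between the root and the shoot effect of OE-SAUR41 (0 of 59, background 0%). An unadjusted p under 0.05 was found for 7 members (11.9%, background 4.77%). The effect on ERF018 was 0.95 in roots and -1.07 in shoots, a difference of 2.02 (SE 0.63, limma adjusted p = 0.807). It was followed by ERF014 with 1.00 and ERF107 with 0.72. The effect on ERF098 was -0.14 in roots and 1.21 in shoots, a difference of -1.35 (SE 0.30, limma adjusted p = 0.792), with -1.30 for ERF054 and -1.19 for ERF053. Without Col-0 shoot 2, 8 members were called, with ERF018, ERF014, ERF107 and ERF119 higher and ERF098, ERF053, ERF069 and ERF8 lower. This was 13.6% of the members, when 34.8% of all genes were called, 32.1% higher and 2.70% lower.

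Some members differed widely between the libraries of a group. In OE-SAUR41 roots 6 of 59 members differed by 2-fold or more between the libraries (10.2%, against 2.04% of all genes), and in Col-0 roots 4 did (6.78%, against 1.27%). In all 10 cases the first library was the higher. Among all tested genes that far apart, the first was the higher for 305 and the second for 100 in OE-SAUR41 roots. In Col-0 roots these counts were 72 and 180. In OE-SAUR41 shoots 3 members did (5.08%, against 1.79%), and in Col-0 shoots 10 did (16.9%, against 29.1%). In Col-0 shoots the first library was the higher for 6 of the 10 and the second for 4, against 5558 and 222 of all tested genes.

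**Figure D4:**
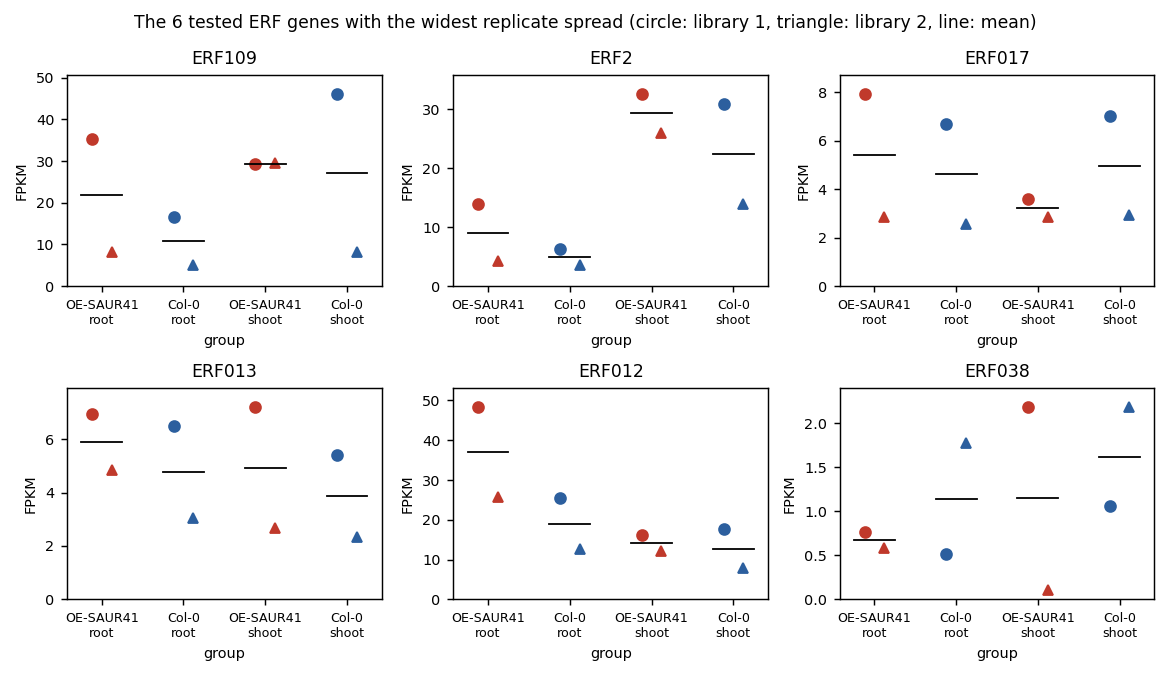
FPKM of the 6 tested ERF genes with the widest mean replicate difference, in OE-SAUR41 (red) and Col-0 (blue) roots and shoots. Circles are the first library of a group, triangles the second, and lines the means of 2. ERF109 spans 35.4 and 8.12 FPKM within OE-SAUR41 roots and 46.1 and 8.29 FPKM within Col-0 shoots, while its OE-SAUR41 shoot libraries lie at 29.2 and 29.5 FPKM.

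The widest was ERF109 (AT4G34410, chromosome 4, 16451876 to 16454633), also known as RRTF1, a gene of reactive oxygen and wound responses. It stood at 35.4 and 8.12 FPKM in OE-SAUR41 roots, against 16.5 and 5.01 FPKM in Col-0 roots. In shoots it stood at 29.2 and 29.5 FPKM in OE-SAUR41, against 46.1 and 8.29 FPKM in Col-0. The first library was about 4 times the second in OE-SAUR41 roots, and the groups overlapped in both organs. ERF109 shares its locus with another gene in the files, so its values are uncertain. ERF2, ERF017, ERF013, ERF012 and ERF038 followed.

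Genes known for fast responses to touch and wounding, none of them a member, also differed between the libraries of a group. The 18 genes, WRKY40, ZAT12, TCH3, TCH4 and JAZ1 among them, summed to 1488 and 726 FPKM in OE-SAUR41 roots and to 1109 and 711 FPKM in Col-0 roots. In shoots they summed to 728 and 695 FPKM in OE-SAUR41 and to 1144 and 534 FPKM in Col-0. The first library was the higher for 17 of 18 genes in OE-SAUR41 roots, 16 in Col-0 roots, 11 in OE-SAUR41 shoots and 16 in Col-0 shoots. Of all genes the first library was the higher for 66.1%, 60.5%, 45.3% and 75% in the same order of groups. Of the tested ERF members it was the higher for 61%, 83.1%, 44.1% and 57.6%. None of the 18 was called by limma between OE-SAUR41 and Col-0 in either organ. Their part in the replicate spread of the ERF genes was not tested.

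Genes upstream of the ERF factors were not called between the genotypes. The 2 Col-0 shoot libraries differed by 2-fold or more for 8 of the 12 tested genes of ethylene perception and signalling (66.7%, against 29.1% of all genes). The part of this in the comparison was not tested. None of these genes was called by limma in roots or in shoots. In shoots the largest negative value was that of EIN2, -0.70, and the largest positive that of RTE1, 0.63. EIN2 stood at 6.95 and 7.23 FPKM in OE-SAUR41 shoots, against 22.7 and 6.25 FPKM in Col-0 shoots, and its groups overlapped. RTE1 stood at 8.38 and 8.66 FPKM, against 4.95 and 5.41 FPKM, in the same order. Between organs, 10 of the 12 were called higher in roots in OE-SAUR41 (83.3%, against 66% of all genes) and 8 in Col-0 (66.7%, against 52.7%), led by the receptor genes ERS1 (log2 difference 2.67 and 2.05) and EIN4 (2.67 and 1.90). As deposited, all 5 TOPLESS co-repressor genes were called higher in roots in both genotypes (100%, against 66% of all genes in OE-SAUR41 and 52.7% in Col-0). Of these 5, 4 differed by 2-fold or more between the Col-0 shoot libraries (80%, against 29.1% of all genes). Neither the 12 nor the 5 genes were recounted under the other scalings, which lowered the share of all genes called higher in roots. TPL stood at 60.0 and 53.8 FPKM in OE-SAUR41 roots against 8.87 and 8.10 FPKM in OE-SAUR41 shoots. In Col-0 TPL stood at 52.1 and 53.6 FPKM in roots against 24.5 and 10.6 FPKM in shoots.

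Of 7 defence genes known as targets of the GCC box factors, 3 could be tested, and limma called none between OE-SAUR41 and Col-0. HEL, which encodes a hevein-like protein, stood at 94.8 and 94.1 FPKM in OE-SAUR41 shoots, against 31.0 and 31.1 FPKM in Col-0 shoots (log2 fold change 1.58, limma adjusted p = 0.0569). HCHIB, a basic chitinase gene, stood at 3.78 and 3.91 FPKM, against 0.923 and 1.36 FPKM, in the same order (1.19, limma adjusted p = 0.192). Both OE-SAUR41 values of HEL and HCHIB lay above both Col-0 values. PDF1.4 stood at 6.34 and 1.74 FPKM in OE-SAUR41 shoots, against 2.14 and 3.13 FPKM in Col-0 shoots, and overlapped. PDF1.3 was listed in 1 library, and 3 genes of the PDF1.2 type were not listed in any. ERF094, the ORA59 activator of this class of genes, stood at 1.13 and 2.77 FPKM in OE-SAUR41 shoots, against 1.04 and 2.87 FPKM in Col-0 shoots. Its groups overlapped.

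Low oxygen response genes, were mostly called higher in roots as deposited. In OE-SAUR41, 9 of 10 were called higher (90%, against 66% of all genes), and in Col-0, 8 of 10 were (80%, against 52.7%). The list was not recounted under the other scalings, which lowered the share of all genes called higher in roots. The haemoglobin gene HB1 had the largest differences, 3.86 in OE-SAUR41 and 3.78 in Col-0, followed by the pyruvate decarboxylase gene PDC1 with 3.19 and 3.70. None of the 10 was called by limma between OE-SAUR41 and Col-0 in roots or in shoots.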

How the data were processed

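Total RNA of roots and shoot parts was sequenced, with an Illumina HiSeq according to the labels. The authors deposited 1 table per library with FPKM values per gene, per the file headers, and per the submitters' processing notes the genome build was TAIR10. The aligner, quantifier and handling of strand and shared reads were not given in the sources used here. Since the tables list values above 0, an unlisted gene was taken as 0. A total of 3 genes with over 100 FPKM in 1 library and no entry in the other of the same group were left out as failed estimates. Depth is unknown, and the number of 2 libraries per group limits the precision. Starts were raised by 1 to count from 1. Names and neighbours were checked against an NCBI gene table of TAIR10.1, where all 76 members matched, and 4 members share their locus with another gene (ERF019, ERF021, ERF109 and ERF118). A gene that also carries such a name is not reported here.

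Testing used the 19863 genes that reached 1 FPKM in 2 or more of the 8 libraries, as log2(FPKM + 1). ERF020, ERF062, ERF071 and ERF086 passed this filter through roots alone, and ERF022 and ERF023 through shoots alone. Their organ calls are thus not independent of the filter. A single limma model (version 3.58.1, R 4.3.3) with a mean for each of the 4 groups was fitted to the whole table, with lmFit, then contrasts.fit, then eBayes using a trend. All adjusted p-values are Benjamini-Hochberg values from limma over all tested genes, two-sided. With 2 libraries on each side, the smallest p of an exact permutation test is 0.333, and no such test was run. A fold change on the log2(FPKM + 1) scale understates the change of low genes.

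The text names, for each comparison, the called members, or the 6 largest and 6 smallest fold changes where more than 12 were called, and otherwise the smallest p up to 3 in each direction. It also names the 5 highest members per organ and the extremes of role groups. Other genes were named after their values were seen. The members and lists were chosen with earlier results of these data known. The alternatives were pseudocounts of 0.1 and 5, filtering at 5 FPKM or not at all, quantile normalization, scaling by TMM (trimmed mean of log ratios, without count weights), a correction for gene length, the replicate number as a block, the libraries of a comparison alone, and leaving out each library. The other tools were matplotlib 3.10.9, numpy 2.4.6, pandas 2.3.3 and Python 3.11.15.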

Additional observations from a re-analysis of the deposited data

How the results depend on the processing

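Over all alternatives tried for the number of members called, 79 values stayed within 1.5 times the reported count, 4 lay above that and 1 below. This tally took no account of direction, and the scalings changed the split between organs. In OE-SAUR41, 23 higher in roots and 16 lower became 10 and 28 (TMM) and 9 and 25 (quantile). In Col-0, 15 and 14 became 9 and 25 (TMM) and 9 and 26 (quantile). The shares of all genes are given above. For OE-SAUR41 against Col-0 shoots, limma called 2 members with the correction for gene length (3.39%, against 0.524% of all genes), 1 when Col-0 shoot 1 was left out (1.69%, against 1.80%) and 15 when Col-0 shoot 2 was (25.4%, against 49.8%). The range was 0 to 15 over the 8 libraries left out in turn, against 0 with all libraries. The difference of the effect gave 8 calls without Col-0 shoot 2 (13.6%, against 34.8% of all genes; range 0 to 8), against 0. Col-0 root against Col-0 shoot gave 18 calls without Col-0 root 2 (30.5%, against 41.8% of all genes; range 18 to 35), against 29. OE-SAUR41 root against OE-SAUR41 shoot ranged from 26 to 42, against 39, and OE-SAUR41 against Col-0 roots stayed at 0. A library left alone in its group was taken to vary as much as those of the remaining groups. Among the medians and the members that the naming rule picked for each comparison, no called value changed its sign. Of these values 13 passed the threshold anew, 10 lost it and 16 medians moved by more than their spread. Outside that rule, some calls in OE-SAUR41 root against shoot turned in sign under TMM scaling. These were the calls of ERF3, ERF008, ERF9, ERF012, ERF060, ERF104, ERF107 and ERF116. In Col-0 root against shoot the call of ERF036 turned, from 0.80 to -0.03. The members' median in Col-0 root against shoot, -0.09, turned to 0.16 without Col-0 root 2, to 0.14 without Col-0 shoot 1 and to 0.28 with the filter at 5 FPKM. The causes were not tested. Depth is unknown, so the precision of low members cannot be given.

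The labels do not say that a replicate number marks a shared batch. Deviations of same-numbered libraries correlated over all genes at 0.076 (OE-SAUR41 with Col-0 roots), 0.46 (OE-SAUR41 roots with Col-0 shoots) and -0.22 (Col-0 roots with Col-0 shoots), and over the 59 members at 0.64, 0.59 and 0.41. For OE-SAUR41 shoots the values over all genes were 0.018 (with Col-0 roots), -0.0084 (with OE-SAUR41 roots) and -0.0049 (with Col-0 shoots). Over the members they were -0.018, 0.25 and 0.13. Not every pair passed 0.1 over all genes, so the number was not taken to pair the libraries, and whether libraries share a batch was not tested. With the replicate number as a block, 0 members were called in each of the 3 genotype comparisons, 40 in OE-SAUR41 root against shoot and 30 in Col-0 root against shoot.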

Other observations

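Genes of the same AP2/ERF family that carry other names were read in the same libraries. Of 28 such genes, 23 were tested, and none was called by limma between OE-SAUR41 and Col-0 in roots or in shoots. Between organs, 15 were called higher in roots and 4 lower in OE-SAUR41, and 13 higher and 4 lower in Col-0, as deposited. The share higher in roots, 65.2% in OE-SAUR41 and 56.5% in Col-0, was near that of all genes, 66% and 52.7%. The share lower was 17.4% in each genotype, against 11.8% of all genes in OE-SAUR41 and 13.2% in Col-0. These genes were not recounted under the other scalings, which lowered the share of all genes called higher in roots. Among the genes with large root minus shoot differences were TINY, LEP and CRF3, the last a cytokinin response factor. LEP stood at 19.6 and 25.1 FPKM in OE-SAUR41 roots and 18.8 and 16.5 FPKM in Col-0 roots, and at most 0.592 FPKM in shoots. RAP2.11, a factor of the response to low potassium, stood between 6.98 and 9.85 FPKM in roots and was not listed in any shoot library. The 4 genes on the shoot side were the cold response factors CBF1, CBF2 and CBF3 and the group VII factor RAP2.3. RAP2.3 stood at 19.6 and 19.9 FPKM in OE-SAUR41 roots against 95.1 and 98.5 FPKM in OE-SAUR41 shoots (log2 difference -2.24). In Col-0 it stood at 19.0 and 17.2 FPKM in roots against 44.8 and 70.6 FPKM in shoots (-1.59). Its relative RAP2.12, which starts the low oxygen response from a store at the membrane, was called higher in roots in both genotypes as deposited (0.85 in OE-SAUR41 and 1.14 in Col-0).

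Several members lie next to each other in the genome. In the reference gene table, ERF12 and ERF11, ERF095 and ERF098, and ERF107 and ERF104 are direct neighbours among protein-coding genes, and 1 gene lies between ERF2 and ERF5. Their organ differences are given side by side. ERF11 had log2 root minus shoot differences of -1.90 in OE-SAUR41 and -1.66 in Col-0, against -0.30 and -0.04 for ERF12. ERF2 had -1.77 and -1.91, against 0.64 and 0.27 for ERF5. The ERF5 values turned to -0.78 and -0.75 under TMM scaling, and were 0.089 and -0.087 under quantile normalization. As deposited, ERF107 and ERF104 were both called higher in roots in OE-SAUR41 (0.61 and 1.31) and not in Col-0 (-0.12 and 0.58). In OE-SAUR41 their direction turned under TMM scaling (-0.77 and -0.11), and that of ERF107 also under quantile normalization (-0.29). Whether neighbours differ from other pairs was not tested.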
